A study of Mus musculus with 9 samples.

Results

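The interstitial stromal cells of the mouse testis, the Pdgfra- and Tcf21-expressing fibroblast-like cells that lie between the seminiferous tubules, were taken from 9 single-cell RNA-seq libraries of whole testis at postnatal day 24. The members were chosen by measured values. A barcode entered when it passed the study's filter (over 1000 genes and under 10% mitochondrial UMIs), held a UMI in at least 4 of the 7 genes Pdgfra, Dcn, Tcf21, Col1a1, Igf1, Adamts5 and Mfap4, and gave those 7 genes at least 0.2% of its UMIs. It also had to give under 0.2% of its UMIs to the Leydig genes Cyp11a1, Cyp17a1, Hsd3b6, Insl3 and Star, and under 0.1% to the smooth muscle genes Acta2, Myh11 and Tagln. This left 2454 cells of 45132 barcodes, or 5.44%. The levels of these 15 genes are therefore given below as a description, without a test.

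The libraries came from 4 control, 2 NELF-B cKO and 3 TDP-43 cKO mice, 1 library per mouse, all labelled C57BL/6 and, by the study's methods, backcrossed to C57BL/6 J. The cKO males carried 1 floxed and 1 null allele of Nelfb or Tardbp together with the Stra8-iCre transgene, which is active in germ cells from the spermatogonial stage. By that cross the gene is to be lost from germ cells, while stromal cells of a cKO mouse keep the floxed allele as their only copy. The floxed parts were exons 1 to 4 of Nelfb and exon 3 of Tardbp. Controls were littermates or non-littermates whose genotype the labels do not give, and the deposited name of control replicate 2 carries the word het. Deposited names share a code between control replicate 1 and NELF-B cKO replicate 2, between control replicate 2 and TDP-43 cKO replicate 1, between control replicates 3 and 4, and between TDP-43 cKO replicates 2 and 3. No source used here says what the codes mean, and no fit used them. No litter, batch or library date is labelled, so p-values measure the spread between mice and any batch among them.

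Stromal cells of the testis interstitium surround the tubules, blood vessels and Leydig cells, and share an origin with the Leydig lineage. They lay down matrix (collagens, decorin), respond to platelet-derived growth factor through PDGFRA and to Hedgehog ligands from Sertoli cells through PTCH1, and secrete IGF1 and other factors. Tcf21 encodes a transcription factor that marks interstitial progenitor cells in this tissue. NELF-B is a subunit of the complex that holds RNA polymerase II paused near the promoter, and TDP-43, encoded by Tardbp, is a DNA- and RNA-binding protein.

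The libraries held 119203347 to 159407373 UMIs in all, and no stromal barcode was shared between libraries. A stromal cell held 7381 UMIs and 2989 genes at the median, and their summed counts ranged from 381482 in control replicate 3 to 9636371 in TDP-43 cKO replicate 1. The 4 controls were thus the shallowest libraries for these cells, with 381482 to 962099 UMIs against 1131782 to 9636371 in the cKO mice. All levels below are CPM, the UMIs of a gene per 1000000 UMIs of the cells summed for that mouse, from 3′ end counts that are not divided by gene length. RNA set free from broken cells is read in such droplets too. Judged by the spermatocyte and round spermatid markers in barcodes of 1 to 100 UMIs, it made up an estimated 11.5 to 25.8% of stromal UMIs per mouse. The estimate takes all such marker UMIs of stromal barcodes as free RNA, also where a germ cell shared the droplet. It was highest in control replicate 1, where 21 of 117 cells gave these markers over 0.5% of their UMIs.

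Of the 7 marker genes, 1434 cells held all 7, 710 held 6, 235 held 5 and 75 held 4. They took a median of 1.35% of a cell's UMIs. Just inside the 0.2% limit lay 72 cells with 0.2 to 0.3%, and just outside it 84 barcodes with 0.1 to 0.2%. Similarly, 75 cells met the minimum of 4 markers, and 27 further barcodes missed it with 3. Among 2660 barcodes that met the marker limits, 137 exceeded the Leydig limit and 72 the muscle limit. The genes of the rule separated these cells from the other somatic cells by construction. The other somatic cells, chosen by markers of their own, also had to give under 0.2% of their UMIs to the 7 genes. Summed over the 7 markers, stromal cells held 10562 to 13601 CPM over the 9 mice, Leydig cells chosen by a like rule 357 to 909.6, and Sertoli cells 12.6 to 61.7. In free RNA the same 7 genes summed to 31.5 to 57.0 CPM in the controls and 133 to 1074 in the cKO mice.

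Genes outside the rule described the same cells. Cd34, a surface glycoprotein gene known from stromal and endothelial progenitors, lay at 367 to 489 CPM over the 9 mice, against 6.35 to 34.1 in Leydig cells, 0.898 to 7.49 in Sertoli cells and 0 to 4.03 in macrophages. Endothelial cells, 108 in all, had more of it, at 497 to 1044 CPM. Nr2f2, encoding the nuclear receptor COUP-TFII of interstitial progenitors, ranged from 364 to 591 in stromal cells and from 211 to 295 in Leydig cells. Ebf1, a transcription factor of mesenchymal cells, stood at 779.8 to 1330.4 CPM and in Leydig cells at 155 to 256, while its range in endothelial cells, 606 to 1194, overlapped that of stromal cells. Clec3b, an adventitial fibroblast gene encoding tetranectin, had 317 to 653 CPM here and no more than 2.12 in Leydig cells. None of these 4 genes is in the rule, but all were read in the cells it chose, so no test was made.

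**Figure D1:**
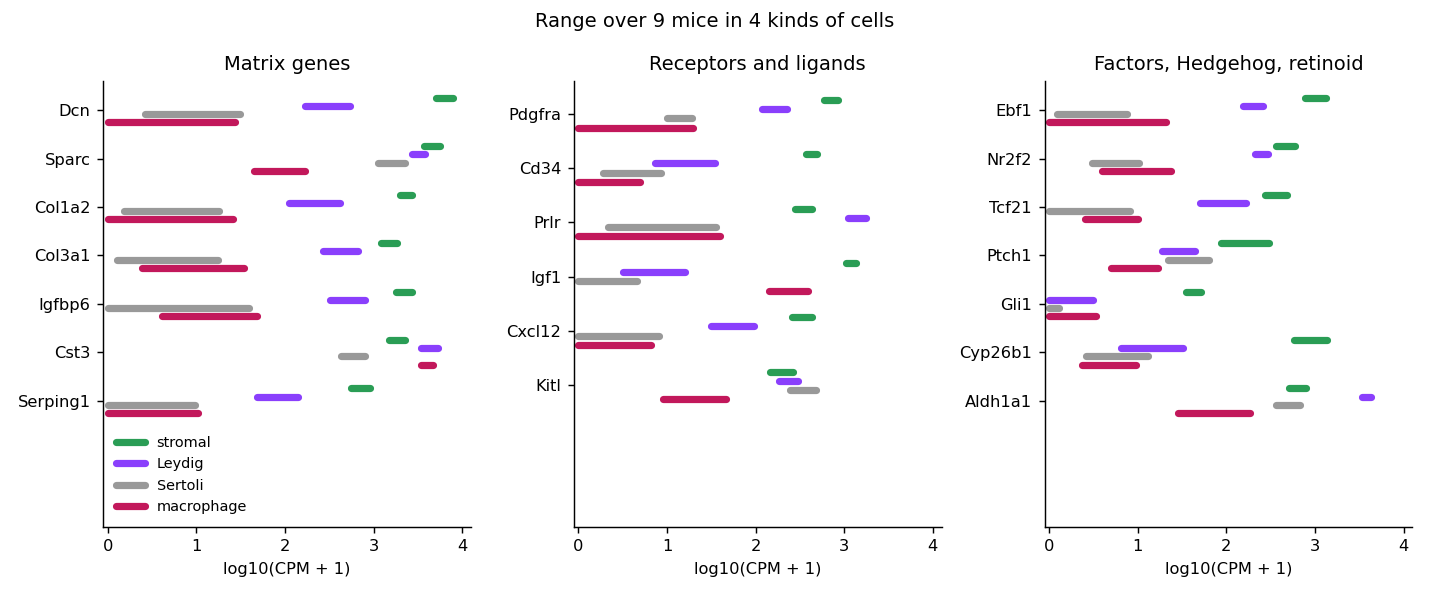
Level of 20 genes in stromal cells (green), Leydig cells (purple), Sertoli cells (grey) and macrophages (red), on the axis log10(CPM + 1); each bar runs from the lowest to the highest of the 9 mice. Dcn in stromal cells, 5094 to 7967 CPM, sits right of every other bar of its row, whereas Prlr, Cst3 and Aldh1a1 are higher in Leydig cells. Dcn, Pdgfra, Tcf21 and Igf1 belong to the rule that chose the stromal cells, and the other cells were chosen with a limit on the same genes.

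Genes of the matrix were read as follows. Decorin (Dcn), a collagen-binding proteoglycan of the rule, was read at 6450.1, 5094, 6606 and 5839 CPM in control, 6731 and 7967 CPM in NELF-B cKO and 7059, 7057 and 7222 CPM in TDP-43 cKO testes. It belongs to the rule, so no comparison of groups is drawn from it. Sparc, a matrix glycoprotein, ranged from 3724 to 5654 in stromal cells and was also read at 2740.4 to 3827 in Leydig cells and 1125 to 2275 in Sertoli cells. The fibrillar collagen genes Col1a2 and Col3a1 ranged from 1971 to 2727 and from 1205 to 1821. In Leydig cells Col1a2 lay at 111 to 415 and Col3a1 at 267 to 669.9. The basement membrane collagen Col4a1 was at 422 to 758, and the laminin chain gene Lama2 at 824 to 1275. Some other members of the matrix lists were almost absent: Postn, Tnc, Col12a1 and Col8a1 averaged 2.63, 0.471, 1.36 and 0.489 CPM over the mice. Activation of these fibroblasts was not tested, and the rule left out barcodes rich in Acta2, Myh11 and Tagln.

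Secreted proteins of the insulin-like growth factor system were prominent. Igf1, a growth factor gene of the rule, lay at 1058 to 1348 CPM. It was read at 2.21 to 14.9 in Leydig cells, 0 to 3.65 in Sertoli cells and 141 to 385 in macrophages. All these cells were chosen by limits that include Igf1, so no contrast is drawn from it. Igfbp6 and Igfbp7, which encode IGF-binding proteins, had 1814 to 2699.7 and 2159 to 3148. The receptor gene Igf1r was read at 223 to 367. Among niche ligands, Cxcl12, a chemokine for stem and immune cells, stood at 259 to 436, and the KIT ligand gene Kitl at 144 to 260.2, with 244 to 475 in Sertoli cells. Csf1, the macrophage growth factor, had 107 to 164. Gdnf, the self-renewal factor of spermatogonial stem cells, averaged 3.35 CPM and did not pass the filter on low counts.

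Genes for receiving signals were read as follows. Pdgfra, of the rule, ranged from 589.8 to 843, and Prlr, the prolactin receptor, from 278 to 426 with 1107 to 1754 in Leydig cells. Hedgehog pathway genes were present at moderate levels: Ptch1, the receptor and a target of the pathway, at 86.5 to 306, Gas1 at 117 to 210.0, Smo, the signal transducer, at 55 to 112, and Gli1, a target, at 34.3 to 51.2. Leydig cells had no more than 2.12 of Gli1, and Sertoli cells no more than 0.307. Cyp26b1, the enzyme that degrades retinoic acid, had 574 to 1361 CPM in stromal cells against 5.52 to 31.5 in Leydig and 1.62 to 12 in Sertoli cells. Aldh1a1, which makes retinoic acid, was read at 507 to 798 here and 3423 to 4321 in Leydig cells.

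Immediate early genes, which cells switch on within minutes of growth signals, stress or tissue dissociation, were high in every mouse. Fos was read at 2855, 3501, 4794 and 3452 CPM in control, 3124 and 4464 CPM in NELF-B cKO and 3617, 4367 and 3354 CPM in TDP-43 cKO testes, and the groups overlapped. Junb ranged from 1764 to 2859.9, Egr1 from 1225 to 2565 and Klf4 from 851 to 1948. The part of enzymatic dissociation in these levels was not tested.

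Stromal cells made up a larger share of barcodes in every cKO mouse than in any control. The share was 1.53, 1.34, 1.13 and 1.41% of barcodes in the 4 controls. NELF-B cKO testes gave 7.09 and 15%, and TDP-43 cKO testes 22.5, 4.9 and 6.23%. The control mean was 1.35% ± 0.169 (SD, n = 4). In NELF-B cKO it was 11.04% ± 5.58 (SD, n = 2), and in TDP-43 cKO 11.2% ± 9.79 (SD, n = 3). The exact two-sided permutation test gave p = 0.133 for NELF-B and p = 0.0571 for TDP-43 (0.133 and 0.114 adjusted over these 2 tests), and these are the smallest p-values that 4 against 2 and 4 against 3 mice allow. TDP-43 cKO replicate 1, with 887 cells, held the most stromal cells of any mouse. The log2 ratio of mean shares was 3.03 for NELF-B and 3.05 for TDP-43 cKO. It was 2.04 without TDP-43 cKO replicate 1, and for NELF-B 2.39 without replicate 2.

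The denominator differed between the groups as well. Barcodes past the filter numbered 4879 to 8457 in the controls and 2982 to 5638 in the cKO mice. Their median UMIs per mouse were 1754 to 6369 in the controls and 5165 to 19254 in the cKO mice. Among barcodes of at least 2000 UMIs, the mean stromal share was 2.31% in controls, 12.6% in NELF-B and 11.4% in TDP-43 cKO. The log2 ratios of mean shares were then 2.45 and 2.30, and all cKO mice still lay above all controls. Counted against Sertoli cells, the supporting cells of the tubules, there were 1.22, 0.509, 0.472 and 0.308 stromal cells per Sertoli cell in the controls, 3.05 and 1.66 with NELF-B cKO and 1.67, 0.538 and 0.696 with TDP-43 cKO. The NELF-B mice lay above all controls by this count, whereas the TDP-43 mice overlapped them (exact permutation p = 0.343). Against Leydig cells, the steroid-making neighbours, the counts were 0.741, 1.57, 0.659 and 1.73 in the controls, 1.1 and 0.652 in the NELF-B and 1.35, 1.57 and 1.47 in the TDP-43 mice. Both cKO groups overlapped the controls here, and the NELF-B mean was below the control mean (0.875 against 1.17, exact permutation p = 0.533). Against macrophages, a ratio added after the data were seen, the means were 1.03 in controls, 2.26 in NELF-B and 2.19 in TDP-43 mice, with no overlap. From a share of barcodes, more stromal cells and fewer germ cells cannot be told apart.

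**Figure D2:**
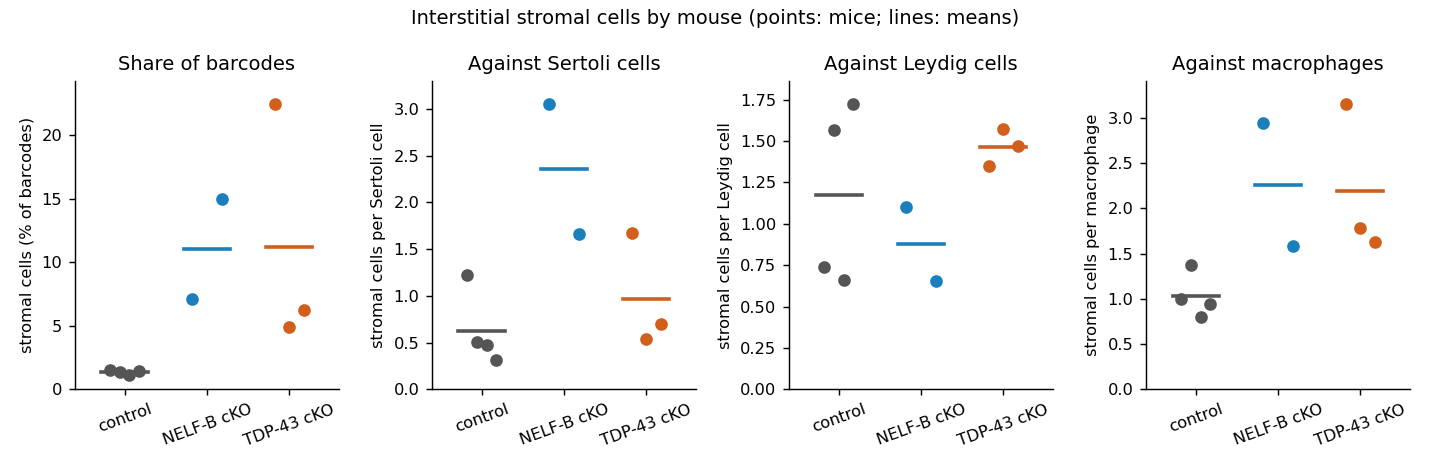
Stromal cells in each mouse (points; lines are group means) as percent of barcodes past the filter and as cells per Sertoli cell, per Leydig cell and per macrophage; all 4 axes start at 0. In percent of barcodes the 5 cKO mice (4.90 to 22.5%) lie above the 4 controls (1.13 to 1.53%), and per Leydig cell the groups overlap.

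The 2 deleted genes were read in the stromal cells of every mouse. Nelfb (ENSMUSG00000013465, GRCm38 chromosome 2, 25199712 to 25211489, minus strand) had 43, 38.5, 31.5 and 35.8 CPM in control, 15.7 and 21.8 CPM in NELF-B cKO and 37.8, 29.2 and 48.6 CPM in TDP-43 cKO testes. Both NELF-B cKO mice lay below all controls, at a mean of 50.4% of the control mean, and the TDP-43 mice overlapped the controls at 104%. edgeR's quasi-likelihood test gave a log2 fold change of -0.97 (SE 0.27) for NELF-B cKO, with an unadjusted p of 0.00319 and an adjusted p of 0.935 over all genes. Free RNA was estimated at 9.75% of the Nelfb reads of control stromal cells. The same mice showed lower Nelfb in other somatic cells. Leydig cells had 30, 23.6, 18.8 and 26.4 CPM in the controls and 8.54 and 10.9 with NELF-B cKO, or 39.3% of the mean. In Sertoli cells the values were 18.8, 27, 20.6 and 26.8 against 5 and 10.2, or 32.6%. Macrophages gave 24.8, 26.6, 21.4 and 39.7 against 4.03 and 19.7, or 42.3%. Some of these values rest on few UMIs. In NELF-B cKO replicate 1 Nelfb had 3 UMIs in macrophages and 11 in Sertoli cells, against 68 and 45 in replicate 2. In all 4 cell types the exact permutation p was 0.133, the smallest this design allows, and 0.237 after adjustment over the 16 tests of this family.

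Tardbp (ENSMUSG00000041459, GRCm38 chromosome 4, 148612382 to 148627019, minus strand) had 64.4, 70.7, 91.7 and 92.7 CPM in control, 63.3 and 62.3 CPM in NELF-B cKO and 52.1, 50.4 and 47.2 CPM in TDP-43 cKO testes. All 3 TDP-43 mice lay below all controls, at a mean of 62.5% of the control mean, and the NELF-B mice also lay just below them at 78.6%. The log2 fold change was -0.63 (SE 0.18) for TDP-43 cKO by edgeR, adjusted p = 0.158. DESeq2 gave an adjusted p of 0.038 for the same contrast, and 0.226 with free RNA subtracted (log2 fold change -0.69), so that this call was lost. The free RNA estimate for Tardbp in control stromal cells was 23.5%. In Sertoli cells the TDP-43 mice had 81.3, 78.3 and 72.8 against 97.8, 96.4, 116 and 113 CPM in the controls, and in macrophages 57.5, 54.6 and 50.9 against 64.1, 87.6, 61.7 and 107. Neither overlapped, with exact permutation p = 0.0571 (0.237 adjusted), whereas Leydig cells gave 63.4, 47.7 and 53.8 against 59.6, 78.3, 65.7 and 87.8 and overlapped. Without control replicate 2, the library named het, the log2 fold changes were -0.95 for Nelfb and -0.69 for Tardbp. A 3′ count reads the end of the transcript, outside the floxed exons, so these values do not measure the exons themselves.

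**Figure D3:**
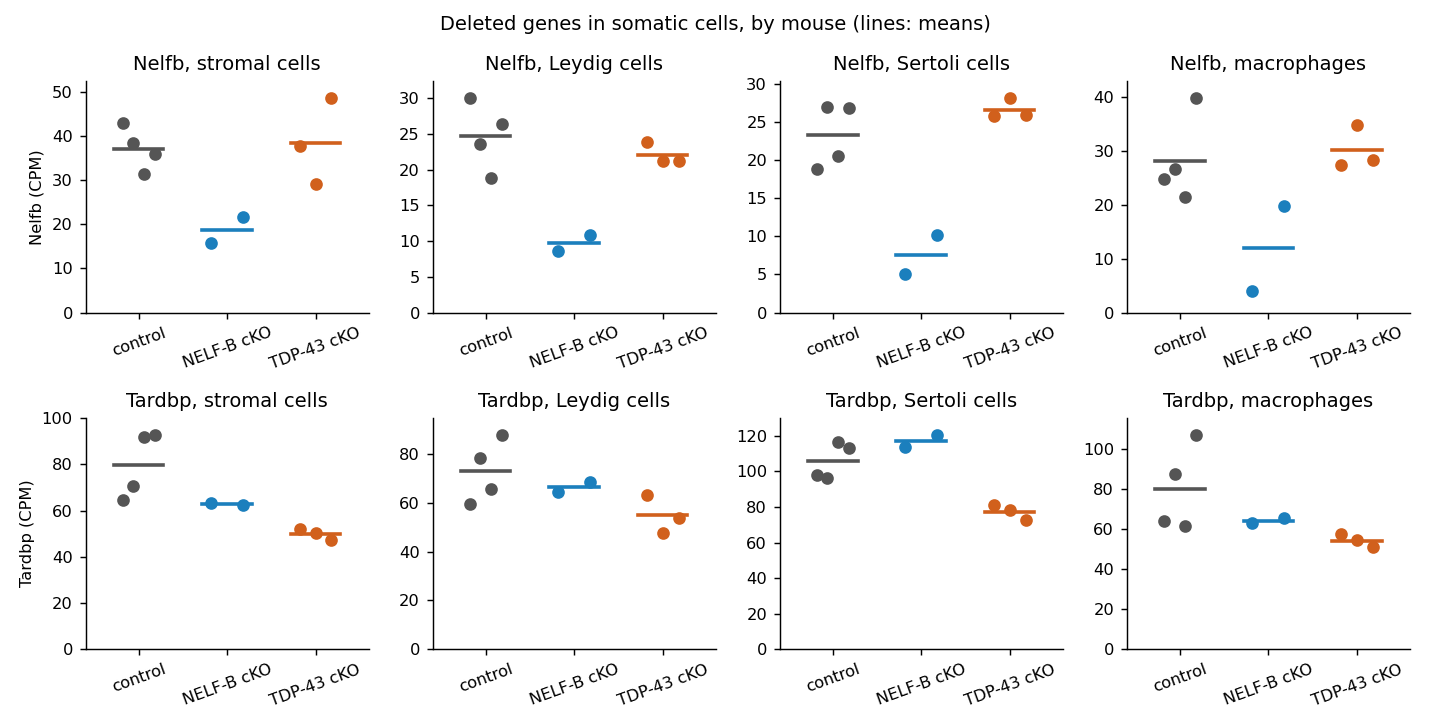
Nelfb (top) and Tardbp (bottom) in CPM of the summed cells of each mouse, in stromal cells, Leydig cells, Sertoli cells and macrophages; points are mice, lines group means, and every axis starts at 0. Nelfb is lowest in the NELF-B cKO mice in all 4 panels (50.4, 39.3, 32.6 and 42.3% of the control mean), and the mean of Tardbp is lowest in the TDP-43 cKO group.

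No gene passed the test across the transcriptome. Of 11706 genes tested on the summed counts of each mouse with edgeR (all 9 mice in 1 fit, adjusted p under 0.05), 0 (0%) were called in NELF-B cKO against control, 0 (0%) in TDP-43 cKO against control and 0 (0%) in TDP-43 cKO against NELF-B cKO. The lowest adjusted p-values were 0.935, 0.152 and 0.968. At an unadjusted p under 0.05 there were 192 genes lower and 296 higher in NELF-B cKO, 1436 lower and 577 higher in TDP-43 cKO, and 360 lower and 190 higher in TDP-43 against NELF-B cKO. DESeq2 made 0 calls for NELF-B and for TDP-43 against NELF-B. For TDP-43 it called 668 genes lower (5.71%) and 37 higher (0.316%) of the 11704 of these genes to which it gave an adjusted p.

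Most of the genes read lower in all TDP-43 cKO mice were genes whose control stromal UMIs were, by the estimate, mainly free RNA. Where free RNA was estimated to give 50 to 100% of a gene's reads in the controls, 951 of 1597 genes (59.5%) had all 3 TDP-43 mice below all 4 controls, and their median log2 fold change was -1.89. Below 10% free RNA, this held for 60 of 4374 genes (1.37%), with a median of 0.14, and 371 genes (8.48%) had all TDP-43 mice above all controls. Over all tested genes, the groups did not overlap for 1401 genes lower (12%) and 723 higher (6.18%) in TDP-43 cKO, and for 390 lower (3.33%) and 676 higher (5.77%) in NELF-B cKO. Of the 668 genes that DESeq2 called lower, 587 lay in the class of 50 to 100% free RNA and 8 in the class below 10%. Germ cell markers were read in these cells too. Round spermatid markers, 8 genes such as Tnp1, Tnp2 and Prm1, summed to 40.5 to 451 CPM in control stromal cells, 7.25 to 356 in NELF-B and 4.57 to 16.9 in TDP-43 cKO, and in free RNA to 367 to 3032, 61.6 to 3199 and 20.1 to 110.4. Spermatocyte markers, 9 genes, gave 1222 to 2943, 253 to 1443 and 208 to 612. With free RNA subtracted, edgeR called 5 genes lower and 2 higher in TDP-43 cKO.

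**Figure D4:**
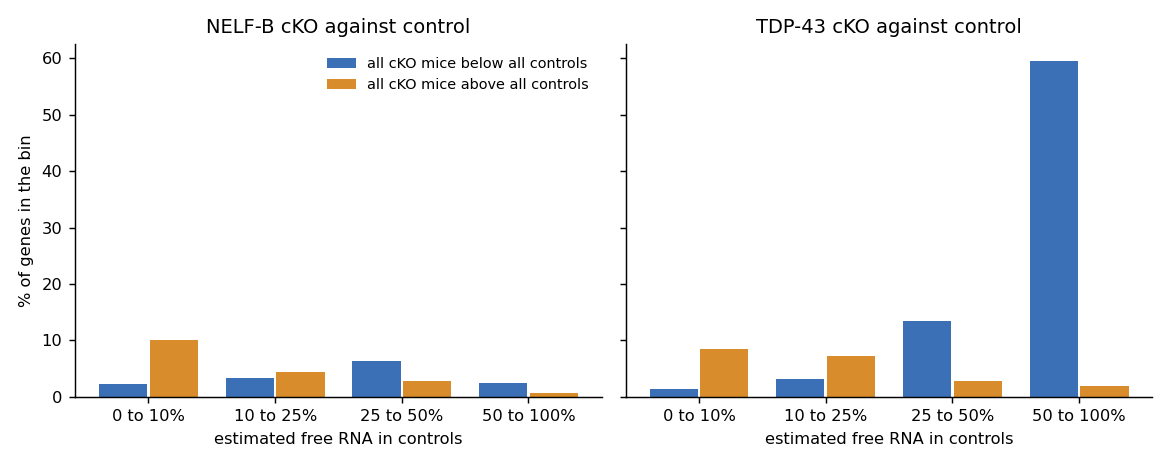
Percent of genes whose cKO mice all lie below (blue) or all above (orange) the 4 controls, in 4 classes of genes by the estimated percent of their control stromal UMIs that is free RNA; left NELF-B cKO, right TDP-43 cKO. The blue bar reaches 59.5% in the class of 50 to 100% free RNA in TDP-43 cKO and 1.37% in the class below 10%.

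Some genes with little free RNA in the controls passed tests other than the fit of all 9 mice. In all, 405 genes passed both DESeq2 and the edgeR fit of TDP-43 and control mice alone. Among the 4374 genes with under 10% free RNA in the controls these were 18, chosen after their values were seen, 7 lower and 11 higher in TDP-43 cKO. This class was set by the controls alone, and the estimate can differ in the cKO mice. For Alpl it was 1.21% in control, 1.95% in NELF-B cKO and 5.91% in TDP-43 cKO stromal cells. Of the 18, Alpl alone was still called by both with free RNA subtracted. None passed the fit of all 9 mice. The NELF-B values beside them share the same 4 controls and are given side by side only. Eln, which encodes elastin, was read at 131, 132, 123 and 126 CPM in control, 76.6 and 91.4 CPM in NELF-B cKO and 94.1, 76 and 83 CPM in TDP-43 cKO testes. The 4 controls lay above all 5 cKO mice. The log2 fold changes were -0.59 (SE 0.16) in NELF-B and -0.57 (SE 0.15) in TDP-43 cKO (edgeR adjusted p = 0.935 and 0.154).

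Alpl, the tissue-nonspecific alkaline phosphatase, had 57.8, 42.6, 41.9 and 69.5 CPM in control, 35.5 and 25.6 CPM in NELF-B cKO and 24.9, 25.6 and 14.8 CPM in TDP-43 cKO testes. Again all cKO mice lay below all controls, with log2 fold changes of -0.79 (SE 0.28) and -1.23 (SE 0.26). Cxcl14, a chemokine gene, had 61.1, 69.6, 47.2 and 54.8 CPM in control, 40.7 and 33.1 CPM in NELF-B cKO and 24.3, 37.1 and 31.7 CPM in TDP-43 cKO testes. Its log2 fold changes were -0.68 (SE 0.23) and -0.94 (SE 0.21). In single mice its level reached 2.47 CPM in Leydig, 0.541 in Sertoli and 16.2 in myoid and smooth muscle cells and 9.43 in macrophages, and it was not read in endothelial cells. Itgbl1, encoding a secreted integrin-like protein, stood at 41.3, 35.3, 26.2 and 33.7 CPM in control, 16.1 and 11.6 CPM in NELF-B cKO and 14.2, 19.4 and 14.8 CPM in TDP-43 cKO testes, and the groups did not overlap. Spon1, encoding the matrix protein F-spondin, was at 95.8, 57.2, 97 and 44.3 in controls and 30.1, 35.3 and 37.1 in TDP-43 mice, but at 44 and 79.6 in NELF-B mice, which overlapped the controls.

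In the other direction, Cacng4, a regulatory subunit gene of calcium channels and AMPA receptors, was read at 51.2, 60.3, 55 and 54.8 CPM in control, 105 and 86.1 CPM in NELF-B cKO and 85.8, 88.4 and 86.4 CPM in TDP-43 cKO testes. The 5 cKO mice lay above the 4 controls, with log2 fold changes of 0.78 (SE 0.16) and 0.67 (SE 0.15) and edgeR adjusted p-values of 0.935 and 0.152. Fmo2, a flavin-containing monooxygenase gene, had 57.8, 38.5, 57.7 and 35.8 CPM in control, 79 and 87.5 CPM in NELF-B cKO and 78.3, 93.7 and 71.5 CPM in TDP-43 cKO testes. Plcb1, a phospholipase C of receptor signalling, had an estimated 13.2% free RNA in the controls. It stood at 14.9, 32.2, 23.6 and 21.1 in controls, 56.5, 57.4 and 56 in TDP-43 mice and 33.1 and 27.9 in NELF-B mice. It was 1 of the 19 genes called by DESeq2 and by edgeR on TDP-43 and control mice alone, each with and without free RNA subtracted (18 lower, 1 higher). Of the 18 lower, Alpl had an estimated 1.21% free RNA in the controls, and all others 22.8 to 81.3%. The part of free RNA left after the subtraction was not tested.

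In the edgeR fit of all 9 mice no collagen or other matrix gene was called. In NELF-B cKO, of 16 tested collagen genes outside the rule 3 lay below all controls (Col5a2, Col6a2 and Col6a3) and 0 above. Over all tested genes 3.33% lay below and 5.77% above the controls in NELF-B cKO, and 12% below and 6.18% above in TDP-43 cKO. Among genes with under 10% free RNA, 2.29% lay below and 10.1% above in NELF-B cKO, and 1.37% below and 8.48% above in TDP-43 cKO. The collagen, other matrix and enzyme lists had median free RNA of 0.21, 0.22 and 0.78% in the controls. The counts of matrix genes here are therefore to be read against the shares under 10% free RNA. The median log2 fold change of the collagen genes was -0.14, against -0.01 over all tested genes. In TDP-43 cKO 0 of 16 did not overlap, and the median was -0.08 against 0.03. The 27 other matrix genes tested gave medians of -0.11 and 0.03. In NELF-B cKO Eln, Thbs2 and Tnxb lay below and Lamb1 and Sparcl1 above all controls, and in TDP-43 cKO only Eln below and Efemp2 above. Of 24 matrix enzymes and inhibitors, Adamts2, a procollagen protease, and Loxl2, a collagen cross-linking enzyme, lay below the controls in both cKO groups, and Mmp11 in NELF-B cKO. Adamts2 had 162, 182, 194 and 272 CPM in control, 155 and 155 CPM in NELF-B cKO and 144, 133 and 142 CPM in TDP-43 cKO testes, and Loxl2 82.6, 65.5, 78.6 and 63.2 CPM in control, 57.7 and 44.2 CPM in NELF-B cKO and 48.4, 42.4 and 49.9 CPM in TDP-43 cKO testes. Adamts1, a protease of proteoglycans, lay above them in both, at 164, 175, 173 and 141 CPM in control, 195 and 237 CPM in NELF-B cKO and 194, 209 and 186 CPM in TDP-43 cKO testes.

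Growth factor and receptor genes were likewise without a call in that fit. Of 25 tested ligand genes outside the rule, Vegfd lay above the controls in NELF-B cKO, and Cxcl12, Inhba and Mdk above and Bmp7 below them in TDP-43 cKO. Over all genes 5.77% lay above and 3.33% below in NELF-B cKO, and 6.18% above and 12% below in TDP-43 cKO. Among genes with under 10% free RNA, 10.1% lay above and 2.29% below in NELF-B cKO, and 8.48% above and 1.37% below in TDP-43 cKO. The median log2 fold changes of the ligand genes were 0.17 and 0.15. Vegfa, the endothelial growth factor, was at 44.6, 44.7, 44.6 and 44.3 CPM in control, 23.4 and 34.2 CPM in NELF-B cKO and 39, 44.2 and 32.4 CPM in TDP-43 cKO testes, below in both although 1 TDP-43 mouse only just so. Mdk, encoding the growth factor midkine, had 111, 105, 89.1 and 73.8 CPM in control, 73.4 and 169 CPM in NELF-B cKO and 208, 143 and 153 CPM in TDP-43 cKO testes. Cxcl12 was read at 307, 270.2, 343 and 266 CPM in control, 259 and 428 CPM in NELF-B cKO and 436, 359.6 and 359 CPM in TDP-43 cKO testes. Among 11 IGF-binding and IGF receptor genes, Igfbp3 lay above the controls in TDP-43 cKO. The 27 receptor genes tested outside the rule had medians of 0.10 and 0.04. Tgfbr3, Itgb1 and Lifr lay above the controls in NELF-B cKO, Notch3, a pericyte gene, below, and none in TDP-43 cKO.

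The Hedgehog genes, 11 of 11 tested, had medians of 0.20 in NELF-B and 0.21 in TDP-43 cKO. Ptch1 and Gli1, the usual readouts, overlapped between the groups, Ptch1 with 152, 188, 86.5 and 175 CPM in control, 306 and 168 CPM in NELF-B cKO and 177, 155 and 190.3 CPM in TDP-43 cKO testes. Boc lay above the controls in NELF-B cKO, Cdon in TDP-43 cKO, and Sufu, an inhibitor of the pathway, below in both. Over all genes the shares above and below were 5.77% and 3.33% in NELF-B, and 6.18% and 12% in TDP-43 cKO. Among genes with under 10% free RNA they were 10.1% and 2.29%, and 8.48% and 1.37%. For the 12 tested Wnt and BMP modulators the groups overlapped in both comparisons.

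Transcription factors of interstitial cells were above the controls for 6 of 29 tested genes outside the rule in NELF-B cKO (among them Klf9, Nr2f2, Osr2, Twist2 and Zeb1), and 5 of 29 in TDP-43 cKO (among them Maf, Nr2f2, Zeb1 and Zeb2). None lay below. Over all genes, 5.77% and 6.18% lay above, and among genes with under 10% free RNA 10.1% and 8.48%. DESeq2 called 3 of the 29 higher in TDP-43 cKO, among them Nr2f2 and Zeb1, against 37 of 11704 (0.316%) over all genes. The edgeR fit of all 9 mice called none. Nr2f2 was read at 441, 479, 364 and 415 CPM in control, 534 and 488 CPM in NELF-B cKO and 507, 591 and 566 CPM in TDP-43 cKO testes. Zeb1, a factor of mesenchymal cells, had 195, 278, 259.5 and 280.3 CPM in control, 325 and 284 CPM in NELF-B cKO and 322, 391 and 343 CPM in TDP-43 cKO testes. Ebf1, Nfia and Klf4 overlapped in both comparisons.

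Retinoid, steroid and immune genes had members outside the control range in one group or the other. Cyp26b1 had 857, 894, 574 and 1058 CPM in control, 1197 and 1361 CPM in NELF-B cKO and 1128, 809 and 835 CPM in TDP-43 cKO testes, and Aldh1a1 had 634, 507, 548 and 548 CPM in control, 655 and 798 CPM in NELF-B cKO and 696, 546 and 561 CPM in TDP-43 cKO testes. Both NELF-B mice lay above all controls for both genes, whereas the TDP-43 mice overlapped. For Aldh1a1, which was read at 3423 to 4321 CPM in Leydig cells, the free RNA estimate differed between the groups. It was 2.21% in control, 10.9% in NELF-B cKO and 19.8% in TDP-43 cKO stromal cells. Aldh1a2, also a retinoic acid-making enzyme, lay below the controls in TDP-43 cKO. The 13 tested retinoid genes had medians of -0.02 and 0.01. Of 15 tested steroidogenesis genes outside the rule, Hsd3b1 and Idh1 lay above the controls in NELF-B cKO and 0 lay outside them in TDP-43 cKO, with medians of 0.26 and 0.17. Hsd3b1, a steroid-making enzyme of Leydig cells, was read at 0, 1.04, 0 and 2.11 CPM in control, 8.87 and 15 CPM in NELF-B cKO and 12.1, 2.65 and 0.675 CPM in TDP-43 cKO testes, with 515 to 1242 in Leydig cells. The 5 Leydig genes of the rule summed to 65.5 to 135 CPM in stromal cells of controls, 99.6 to 192 in NELF-B and 76.0 to 166 in TDP-43 cKO, and in free RNA to 55.8 to 119.6, 504 to 1316 and 95.5 to 1310. The part of Leydig RNA in the Hsd3b1 and Aldh1a1 values was not tested. Cxcl10, an interferon-induced chemokine, had 155, 124, 252 and 59 CPM in control, 306 and 476 CPM in NELF-B cKO and 209, 250.0 and 246 CPM in TDP-43 cKO testes, above all controls in NELF-B cKO. Its log2 fold change was 1.45 (SE 0.43), with an edgeR adjusted p of 0.935. Of 15 tested complement, chemokine and cytokine genes, C1s1 and C3 lay above the controls there too, Vcam1 lay above them in TDP-43 cKO, and Cxcl14 and Ptgis lay below in both. The shares over all genes were 5.77% above and 3.33% below in NELF-B cKO, and 6.18% above and 12% below in TDP-43 cKO. Among genes with under 10% free RNA they were 10.1% and 2.29%, and 8.48% and 1.37%. In NELF-B stromal cells the macrophage markers C1qa, Cd68 and Lyz2 lay above all controls as well, the 6 markers of the list summing to 153 to 181 CPM against 8.26 to 131, and the median log2 fold change of its 5 tested genes was 1.61. Their part in the complement, chemokine and cytokine values was not tested. Of 20 interferon and MHC class I genes, Ifitm1 lay below in NELF-B and H2-D1 above in TDP-43 cKO. Of 35 immediate early and stress genes, Hsp90aa1 lay below in both groups, with 28.9% free RNA in the controls, and Gadd45g below in TDP-43 cKO.

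Many cell cycle genes did not overlap between the cKO groups. In TDP-43 against NELF-B cKO, 15 of 31 tested members had the 3 TDP-43 mice above both NELF-B mice, among them Mki67, Top2a, Cdk1 and 6 Mcm genes, and 1 (Cdkn1b, a cell cycle inhibitor) below. Over all genes, 10.8% lay above and 8.14% below. The median log2 difference was 0.54, against -0.01 over all genes, and 0 members were called. Mki67, a marker of cycling cells, was read at 9.91, 50.9, 28.8 and 69.5 CPM in control, 37.5 and 33.8 CPM in NELF-B cKO and 89.9, 52.1 and 134 CPM in TDP-43 cKO testes. The control range covered both NELF-B mice and the lowest TDP-43 mouse. Mcm2, of the replicative helicase, had 11.6, 11.4, 13.1 and 19 CPM in control, 10.9 and 13.4 CPM in NELF-B cKO and 24.2, 25.6 and 25.6 CPM in TDP-43 cKO testes. Against the controls, 5 members lay above in TDP-43 cKO (Ccnd2, Cdk4, Mcm2, Mcm6 and Tyms) and Mcm3 and Pcna below in NELF-B cKO, where the shares over all genes were 6.18% and 3.33%. The median free RNA estimate over this list was 16.2%, and spermatogonia, which cycle, left markers in the same cells: their 7 genes summed to 67.4 to 97.0 CPM in controls, 88.2 to 136 in NELF-B and 162 to 202 in TDP-43 cKO, and in free RNA to 115 to 192, 199.6 to 394 and 552 to 706. Their part in the cell cycle difference was not tested.

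Clustered among themselves, the stromal cells fell into 9 subclusters, each present in all 3 groups. The clusters are given as a description, and they are called by their leading genes. Genes with much free RNA were left out of the clustering, a choice made after a first clustering was seen. Subcluster 1 (712 cells) was led by Hs6st3, Dpyd and Nlgn1, and its Adam12 level was 653 CPM against 190.4 in the other stromal cells. Subcluster 2 (469 cells) was led by Gpx3, Klf4 and Ier2, with Klf4 at 2043 against 926 CPM. Subclusters 3 (455 cells) and 5 (276 cells) both led with S100a6. In subcluster 3 germ cell genes stood among the leading genes as well, such as Hspb9 at 123 against 47.0 CPM, Fabp9 at 245 against 105 and Ldhc at 443 against 224, and its cells had a median of 4943 UMIs. Subcluster 5 also had Clec3b at 1076 against 372 CPM and Gsn at 6098 against 2440, and Mfap5 was high in both. Subcluster 4 (387 cells) carried genes of the Leydig lineage below the limit of the rule. Lhcgr, the luteinizing hormone receptor, was at 295 CPM in it against 14.2 elsewhere, and Hsd3b6 at 211 against 8.62. Subcluster 7 (48 cells) was of cycling cells by Mki67, at 1222 against 38.3 CPM, and Top2a, at 1397 against 61.5.

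In 3 small subclusters at least 3 of the 10 leading genes were listed markers of another cell type. Subcluster 6 (73 cells) was led by Uchl1 and Dazl of spermatogonia, subcluster 8 (19 cells) by C1qa and Lyz2 of macrophages, and subcluster 9 (15 cells) by Cldn5 and Ptprb of endothelial cells. Together they held 107 cells, not counting subcluster 3, and leaving them out gave 0 calls in all 3 comparisons. Macrophage markers, 6 genes, summed to 8.26 to 131 CPM in control, 153 to 181 in NELF-B and 5.30 to 205 in TDP-43 cKO stromal cells. Endothelial markers gave 141 to 194, 133 to 142 and 135 to 204, and Sertoli markers 275 to 406, 271 to 683 and 396 to 514. Pericyte markers gave 59.0 to 97.7, 46.4 to 55.3 and 53.0 to 55.5, and the 5 myoid and smooth muscle markers 112 to 189, 128 to 149.8 and 129.9 to 167.

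No subcluster was confined to a group, and mice of 1 group varied widely. The Lhcgr subcluster took 9.4, 15, 10.3 and 17.4% of stromal cells in the controls, 15.8 and 21.3% in NELF-B and 15.7, 12.8 and 11.6% in TDP-43 cKO. The Klf4 subcluster ranged from 5.31 to 37.6% in the controls alone. Cycling cells made up 0.855, 0.885, 0 and 4.35% in the controls, 0.25 and 0.895% in NELF-B and 2.71, 3.38 and 4.19% in TDP-43 cKO. All 3 TDP-43 mice lay above both NELF-B mice, and control replicate 4 lay above them all. Subcluster sizes were not tested, since the genes that define the clusters also vary between the mice.

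**Figure D5:**
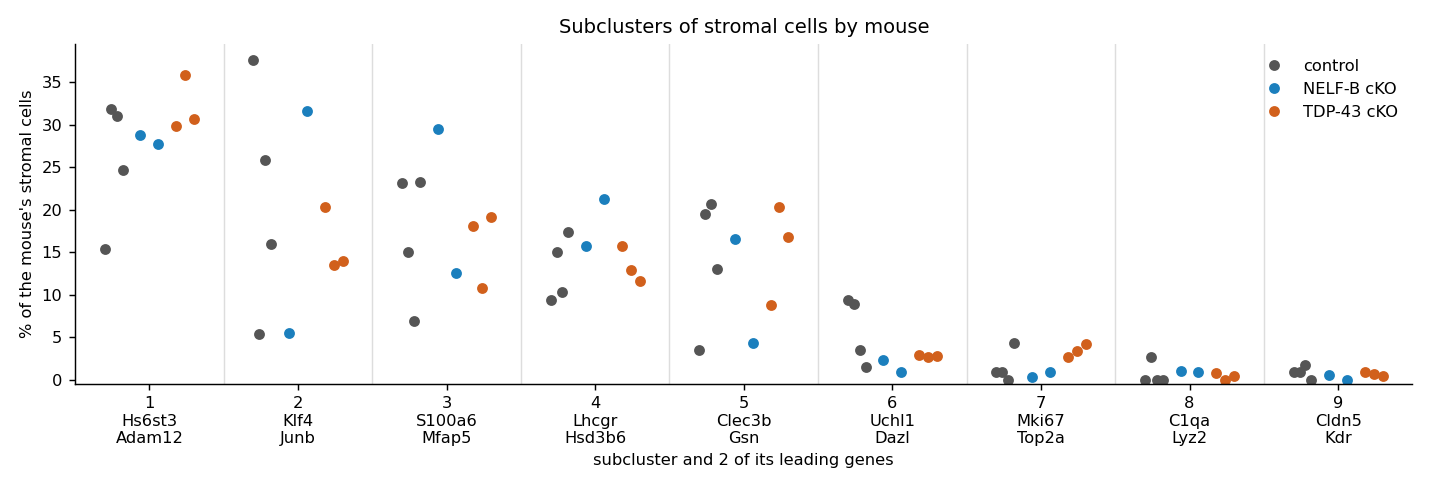
Percent of each mouse's stromal cells in each of the 9 subclusters, with 2 leading genes named under each; points are mice of the 3 groups. The first subcluster takes 15.4 to 35.8% of a mouse's cells, and the cycling subcluster at most 4.35%.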

How the data were processed

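Single-cell RNA-seq (10x Genomics, 3′ libraries) was made from dissociated whole testis of 9 mice. The deposited files hold raw UMI counts, 1 matrix of genes and barcodes per mouse, from Cell Ranger 7.0.0 and mm10 by the authors' methods. From these counts the barcodes were filtered and gated as described, and the counts of the stromal cells of each mouse were summed. No doublet caller was run; subclusters led by markers of another cell type were noted and left out in an alternative. Sums were tested with edgeR 4.0.16 (quasi-likelihood, TMM, filterByExpr, all 9 mice), with calls at an adjusted p under 0.05 (Benjamini-Hochberg), and DESeq2 1.42.0 was an alternative. Free RNA was estimated from barcodes of 1 to 100 UMIs. Cells were clustered with scanpy 1.11.5 on 694 genes, a choice made after a first clustering. Scripts were tested on simulated data. Shares were compared by exact two-sided permutation tests.

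The members and gene lists were chosen with earlier results of these data known. Genes named were Nelfb, Tardbp, the 15 genes of the rule, called genes, and up to 4 members of a list with the highest mean level. List members whose mice do not overlap, the 18 genes with little free RNA in the controls and other genes were named after their values were seen. Same-numbered mice did not deviate together as a set (7 pairs, r from -0.61 to 0.44, 2 above 0.1), so numbers were not taken as pairs. The deviations of the 2 NELF-B mice from their mean are mirror images, so pairs with them say little. Same-numbered control and TDP-43 mice had r of -0.29, -0.16 and -0.07. Mice that share a code in the deposited names were not judged as pairs. Some genes of these lists are not reported here.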

Additional observations from a re-analysis of the deposited data

Results flagged for a closer look

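Of 103 values tested among the 4 controls, 3 had 1 mouse far from the other 3 by Dixon's test, which chance does in about 1 in 20 groups. Control replicate 2 held 2.65% of its stromal cells (3 of 113) in the subcluster led by C1qa and Lyz2, against 0% in the other controls. With the other 3 at 0, any value above 0 would be flagged, so this flag carries no weight. C1s1, a complement protease gene, was at 256 CPM in control replicate 1, against 220.2 to 223 in the other controls. Prlr, the prolactin receptor gene, was at 391 in control replicate 3, against 278 to 285.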

How the results depend on the processing

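The log2 ratio of the stromal share in NELF-B cKO was reversed only as a ratio to Leydig cells, at -0.42. Among barcodes of at least 2000 UMIs it was smaller, at 2.45 for NELF-B and 2.30 for TDP-43 cKO. Leaving out 1 mouse gave 2.39 to 3.47 for NELF-B and 2.04 to 3.41 for TDP-43 cKO. For TDP-43 cKO against control, where the fit of all 9 mice made 0 calls, DESeq2 called 764 genes lower and 39 higher over all genes, edgeR without a filter on low counts 278 and 51, and edgeR on the 2 groups alone 475 and 44. With free RNA subtracted, edgeR called 5 and 2. Joined with that subtraction after the data were seen, DESeq2 called 163 and 6, and edgeR on the 2 groups 48 and 6. With a replicate block, although the numbers were not taken as pairs, edgeR called 1 gene lower in TDP-43 cKO against control and 1 lower against NELF-B cKO. Nelfb and Tardbp then had log2 fold changes of -0.95 and -0.54. For NELF-B cKO, DESeq2 with free RNA subtracted called 3 genes higher. Leaving out 1 mouse gave 0 to 8 genes lower and 0 to 6 higher there: 8 and 6 without NELF-B cKO replicate 1, 4 and 1 without NELF-B cKO replicate 2. For TDP-43 against NELF-B cKO, edgeR without the filter called 1 lower. Leaving out 1 mouse gave 0 to 174 lower and 0 to 28 higher: 0 and 1 without NELF-B cKO replicate 1, 174 and 28 without NELF-B cKO replicate 2. With 1 NELF-B cKO mouse left out, that group is 1 library, assumed to vary like the other groups. RLE scaling, the stricter gate, cells of at least 2000 UMIs and leaving out mixed subclusters gave 0 calls in all 3 comparisons. The cause of these differences was not tested. In log CPM of the tested genes, the 2 NELF-B mice correlated at r = 0.867. NELF-B cKO replicate 1 had r of 0.897 to 0.934 with the controls and 0.817 to 0.887 with the TDP-43 mice. For NELF-B cKO replicate 2 these were 0.760 to 0.882 and 0.952 to 0.967. Low genes were the least precise in the controls, the shallowest libraries for these cells. The part of either in the calls was not tested. With 2 to 4 mice a group no permutation p could fall under 0.05.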
